A study of Mus musculus with 12 samples.

Results

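The 10 genes described here handle iron in the cell: Tfr2, Tfrc, Steap3, Slc11a2 and Slc11a1 on the uptake side, Hfe as a sensor, Fth1 and Ftl1 for storage, Hmox1 for heme breakdown and Slc40a1 for export. Each gene is represented by the array row that its symbol names, and where several rows name it, by the one with the highest mean over the 12 arrays. The rows were thus chosen by a mean expression level, which is given as a description and not tested. The list was put together with the value of Tfr2 at passage 10 known, so that value is not independent evidence about the list. Of the 10 genes, 9 have a row of their own above the filter on low values and are among the 16860 genes tested. Ftl1 is named only by rows that it shares with its pseudogenes and is described apart.

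Mammalian cells take up most of their iron as transferrin bound to the receptor encoded by Tfrc, which carries it into endosomes. There the Steap3 reductase reduces the iron and the transporter encoded by Slc11a2 moves it to the cytosol. Iron not used for heme or iron-sulfur clusters is held in ferritin, built from the Fth1 and Ftl1 chains, or leaves through ferroportin, the product of Slc40a1. Tfr2 and Hfe are known as iron sensors of hepatocytes, and Tfr2 is also made in erythroid precursors, where it associates with the erythropoietin receptor.

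The arrays compared Tet2-/- with Tet2fl/fl cells at passage 10 and at passage 2 after treatment, 3 arrays in each of the 4 groups. All cells came from Kit-enriched bone marrow of mice with floxed Tet2 alleles and CreER, carried a retrovirus for the leukaemia fusion AML1-ETO with GFP, were replated in methylcellulose and then grew in suspension with SCF, IL-3 (10 ng/ml) and IL-6 (10 ng/ml). The Tet2-/- cells had 200 nM 4-hydroxytamoxifen, which activates CreER, for 2 passages (4 days), and the Tet2fl/fl cells had ethanol instead. Cells were sorted for GFP and CD16/32 and against CD11b and Gr1 before 100 ng of RNA went to each array. Tet2 loss, Cre activity and the drug cannot be told apart in this design, and the labels do not say whether replicates were separate cultures, so the p-values rest only on how far these arrays spread, which may be technical. In such bulk samples, fewer cells of a type and less RNA per cell cannot be told apart.

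The array gives 1 value for the whole Tet2 gene, which does not check the deletion: the mean log2 value was 9.89 in Tet2-/- cells and 9.93 in Tet2fl/fl cells, a difference of -0.04 averaged over both passages (limma, Benjamini-Hochberg adjusted p = 0.846). Some genes of the sort gate and of immature myeloid cells were read in both genotypes. Fcgr3, a chain of CD16/32, averaged a log2 value of 10.92 in Tet2-/- cells and 10.88 in Tet2fl/fl cells, and Cd34 averaged 12.04 in Tet2-/- cells and 12.09 in Tet2fl/fl cells. Itgam, which encodes the CD11b that the sort selected against, averaged 8.20 in Tet2-/- cells and 8.04 in Tet2fl/fl cells. Kit, the receptor for SCF, was lower in Tet2-/- cells, at a mean of 9.91 against 10.73 in Tet2fl/fl cells (difference -0.82 ± 0.15 SE, limma adjusted p = 0.022), without overlap between the genotypes. Kit lost its call when Tet2-/- p10 replicate 2, Tet2-/- p2 replicate 1 or 2, or Tet2fl/fl p2 replicate 3 was omitted, at adjusted p-values reaching 0.0553, and without replicate 2 (0.166) or 3 (0.246) in all groups.

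Values of single genes below are log2 expression values after RMA, a method that corrects background, normalizes across arrays and summarises probes. No gene's level is set against another's, since different probes are not on a shared scale. For lists of cell type markers the summed linear level is also given between groups, as a description in which the brightest probes weigh most. A gene passed when its p-value from limma, after Benjamini-Hochberg adjustment across all 16860 genes, was under 0.05.

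Tfr2, the second transferrin receptor, was the 1 of the 9 iron genes to pass in the genotype comparison at passage 10, where it was higher in Tet2-/- cells. In Tet2-/- cells at passage 10 it had log2 values of 7.96, 8.16 and 7.85, against 7.23, 7.02 and 7.23 in Tet2fl/fl cells at passage 10. At passage 2 it had 7.53, 7.50 and 7.45 in Tet2-/- cells, against 7.28, 7.32 and 7.33 in Tet2fl/fl cells. The 4 groups did not overlap with their neighbours in the order of means: Tet2-/- p10 (7.99 ± 0.16), Tet2-/- p2 (7.49 ± 0.04), Tet2fl/fl p2 (7.31 ± 0.03) and Tet2fl/fl p10 (7.16 ± 0.12; SD, n = 3 each).

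**Figure D1:**
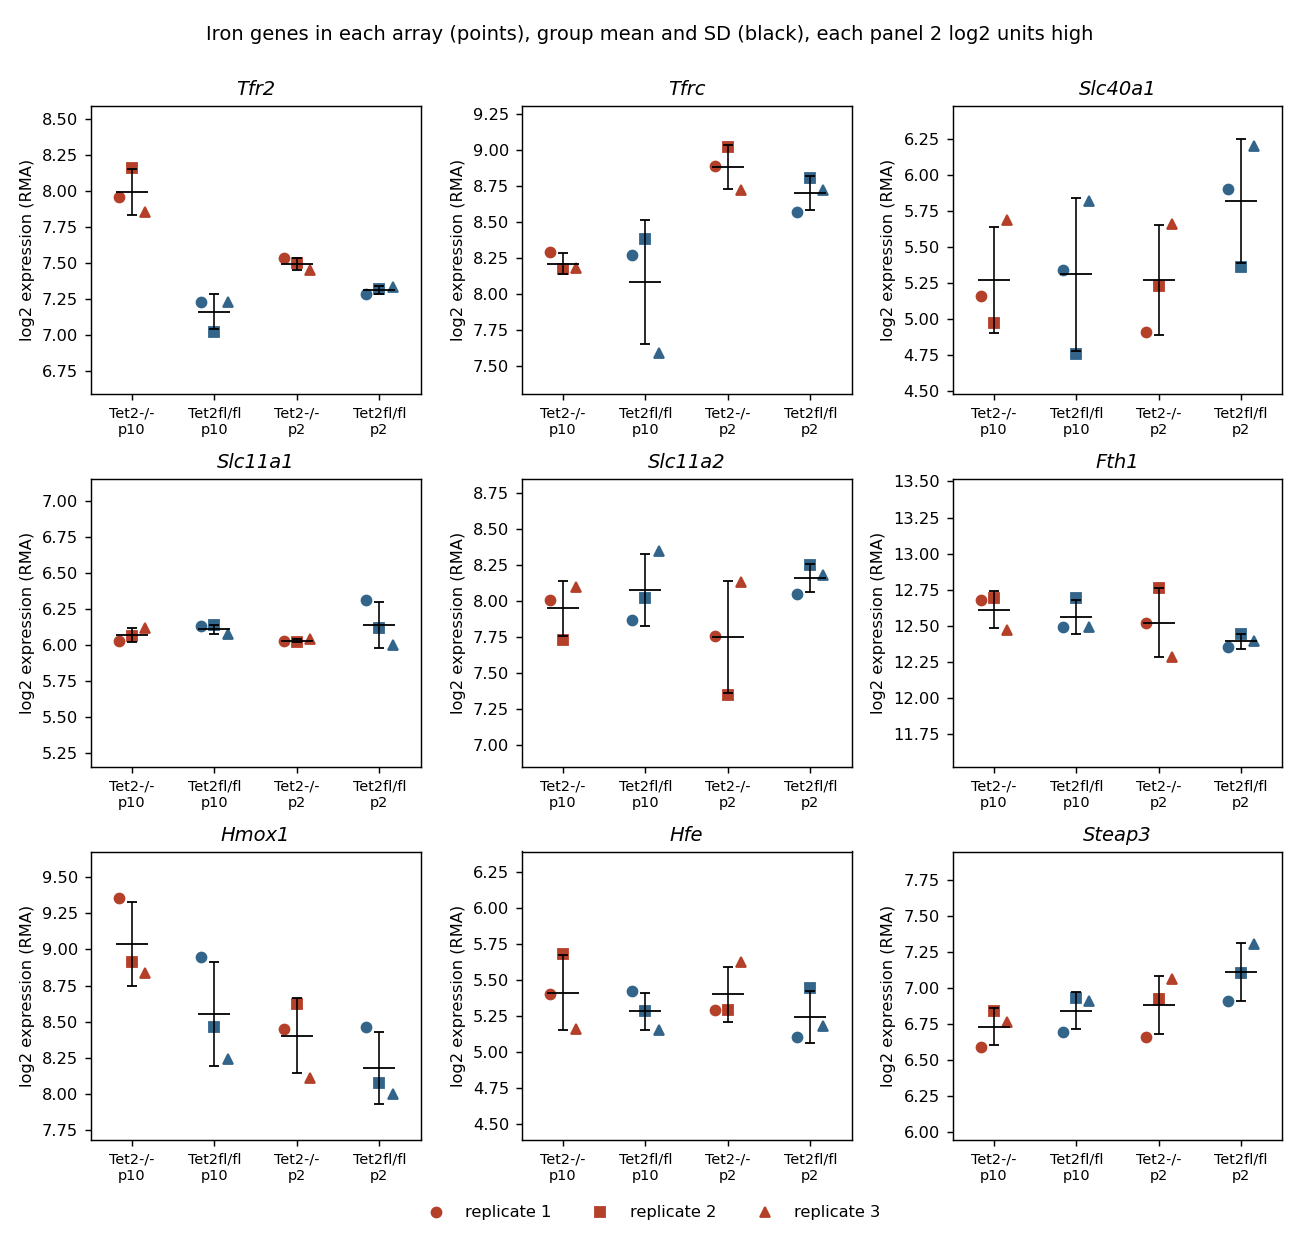
Log2 expression (RMA, y axis, each panel 2 log2 units high) of the 9 tested iron genes in the 12 arrays, by group of genotype and passage; points are arrays, shaped by replicate number, and black lines give the mean and SD. The 3 Tet2-/- p10 arrays lie above all others for Tfr2, the passage 10 arrays lie below the passage 2 arrays for Tfrc in both genotypes, and the Slc40a1 panel shows wide spread within each group.

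At passage 10 the Tfr2 difference between Tet2-/- and Tet2fl/fl cells was 0.83 ± 0.09 (SE; 95% interval 0.63 to 1.03), a 1.77-fold difference with a limma adjusted p of 0.00546. Of all genes tested, 0.225% passed in either direction in this comparison and 0.125% passed as higher. The call was kept without any single array, with adjusted p-values of 0.0106 to 0.0228. It was lost when only the 6 arrays of passage 10 were fitted (adjusted p = 0.144), and without replicate 1, 2 or 3 in all groups (adjusted p = 0.0709, 0.194 and 0.125), at differences of 0.67 to 0.93.

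At passage 2 the Tfr2 difference was 0.18 ± 0.09 (95% interval -0.02 to 0.38), which did not pass (limma adjusted p = 0.552). The groups did not overlap there either, as was the case for 15.3% of all genes at passage 2 and 16.4% at passage 10. Averaged over both passages, Tfr2 was higher in Tet2-/- cells by 0.51 ± 0.06, a mean of 7.74 in Tet2-/- cells and 7.24 in Tet2fl/fl cells (1.42-fold, limma adjusted p = 0.00611). All 6 Tet2-/- arrays lay above all 6 Tet2fl/fl arrays, as was the case in either direction for 1.79% of genes, and 1.72% of genes passed in this average. This call too was kept without any single array, and lost without replicate 1, 2 or 3 in all groups (adjusted p = 0.0661, 0.107 and 0.0971).

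Between passages, Tfr2 was higher at passage 10 in Tet2-/- cells by 0.49 ± 0.09 (1.41-fold, limma adjusted p = 0.0289). In Tet2fl/fl cells its difference between passage 10 and passage 2 was -0.15 ± 0.09 (limma adjusted p = 0.579). The difference between both genotype effects was 0.64 ± 0.13 (95% interval 0.36 to 0.93), with a limma adjusted p of 0.999 (0.000382 before adjustment), so a change of the genotype effect with passage did not pass. In that comparison 0 of 16860 genes passed in limma (0.0%), and 543 (3.22%) had an unadjusted p under 0.05; with the replicate block 0.00593% passed and Tfr2 was not among them (adjusted p = 0.841). The passage call in Tet2-/- cells was lost without Tet2-/- p2 replicate 1 (adjusted p = 0.0907) or 3 (0.0994), and without Tet2-/- p10 replicate 1 (0.0708), 2 (0.0921) or 3 (0.0619).

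Within each replicate number, Tfr2 was higher in the Tet2-/- array in 3 of 3 cases at each passage, which follows from the lack of overlap between the groups. The differences at passage 10 were 0.73, 1.14 and 0.62, and those at passage 2 were 0.25, 0.18 and 0.12. The differences of passage 10 minus passage 2 were 0.43, 0.66 and 0.40 in Tet2-/- cells, and -0.05, -0.30 and -0.10 in Tet2fl/fl cells. Replicate 2 gave the highest difference between genotypes at passage 10.

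**Figure D2:**
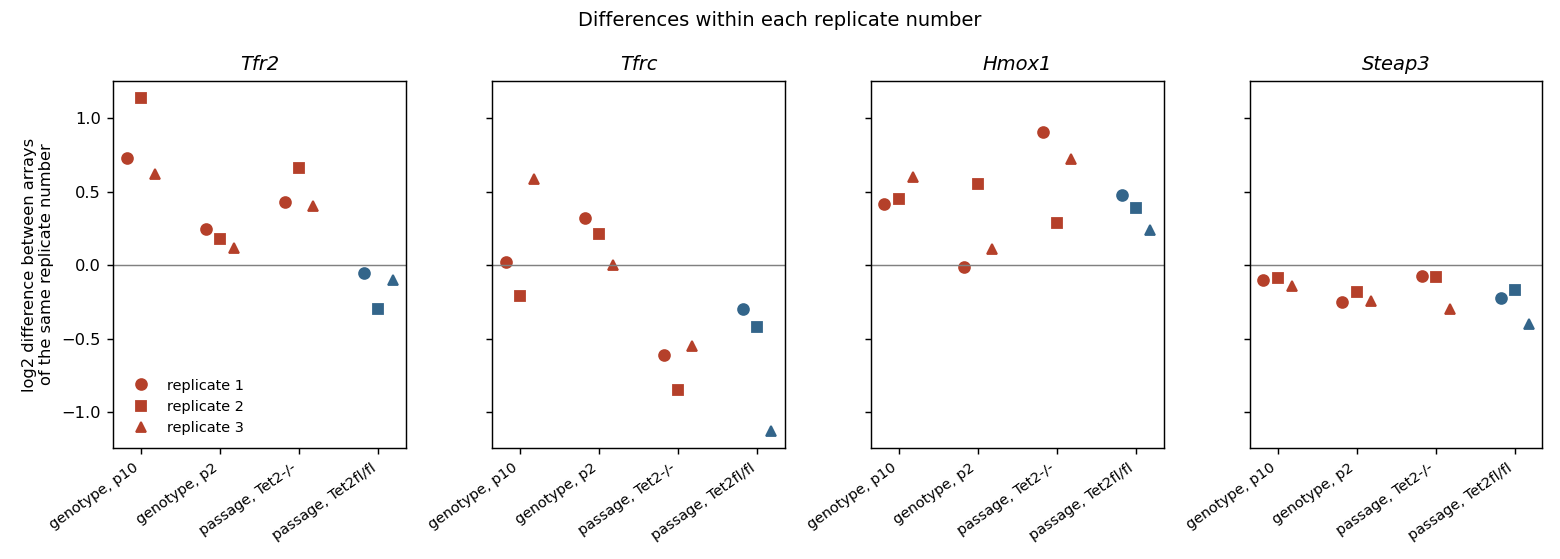
Log2 differences (y axis) between arrays of the same replicate number for Tfr2, Tfrc, Hmox1 and Steap3, for Tet2-/- minus Tet2fl/fl at each passage and passage 10 minus passage 2 in each genotype; each point is 1 replicate number, red for comparisons with a Tet2-/- array and blue for the passage comparison in Tet2fl/fl cells. Tfr2 is above 0 in the genotype comparisons and Tfrc below 0 in both passage comparisons, signs that follow from groups without overlap. Steap3 is below 0 throughout, but the differences of a replicate number share arrays and are not independent.

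Markers of other cells were read beside Tfr2, since erythroid precursors are a known site of it. Of 22 erythroid markers 14 were tested, and 0 passed in the genotype comparison at passage 10 or in the average (limma), beside 0.225% and 1.72% of all genes. In each, 1 had an unadjusted p under 0.05, beside 10.6% of all genes at passage 10 and 16.1% in the average. With the replicate block 1 passed as higher in each, Rhag, which encodes a glycoprotein of the red cell membrane, beside 1.31% and 5.41% of all genes. Rhag had a mean of 5.73 in Tet2-/- p10 cells against 4.71 in Tet2fl/fl p10 cells (1.02 ± 0.32, limma adjusted p = 0.265, and 0.0248 with the block), and its average genotype difference was 0.69 ± 0.23 (adjusted p = 0.158, and 0.0137 with the block). The Tet2fl/fl p10 mean of Rhag is close to the filter on low values (log2 4.70). At passage 10, 8 of the 14 markers had a positive and 6 a negative difference. In the average, 5 had a positive and 9 a negative difference (median -0.06). Their summed linear level was 1891 to 2565 in Tet2-/- p10 arrays, 1845 to 2684 in Tet2fl/fl p10 arrays, 1946 to 2116 in Tet2-/- p2 arrays and 2265 to 2673 in Tet2fl/fl p2 arrays. The globin genes of the list and Alas2 were not tested under their own names, so the sum leaves the globins out. Rows shared with other symbols name Hba-a1 and Hba-a2 (highest mean log2 value 10.1) and Hbb-bs and Hbb-b1 (9.91). Their values by group are not given here.

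A different list, of mast cell and basophil genes, had lower summed levels in Tet2-/- cells at both passages without overlap. The summed level of its 13 tested genes was 41731 to 49472 in Tet2-/- p10 arrays against 50397 to 56726 in Tet2fl/fl p10 arrays. At passage 2 it was 39589 to 48111 in Tet2-/- arrays against 49530 to 51985 in Tet2fl/fl arrays. In the average genotype effect 2 of the 13 passed as lower in Tet2-/- cells, Kit and the mast cell protease Tpsab1 (-1.43 ± 0.22, limma adjusted p = 0.0124), and 6 passed as lower with the replicate block. Tpsab1 lost its call without replicate 2 (0.18) or 3 (0.139) in all groups. Of all genes, 1.06% passed as lower in the average without the block and 3.25% with it. The part of these markers in the Tfr2 difference was not tested.

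A stretch upstream of Tfr2 and of Tfrc is shown because Tet2 acts on methylated CG and the passage differences of these receptors in Tet2-/- cells had opposite signs. Both are on the plus strand in RefSeq's table for build GRCm38.p6, Tfr2 at chr5:137569590-137569821 and Tfrc at chr16:32608646-32608895. Capitals mark ACGTG or its reverse CACGT, a form of the core of the hypoxia response element. They also mark GATAA or its reverse TTATC, a form of the site bound by GATA factors. Other forms of these sites, such as GCGTG or GATA before another base, were neither marked nor counted. The motifs do not overlap each other.
Tfr2: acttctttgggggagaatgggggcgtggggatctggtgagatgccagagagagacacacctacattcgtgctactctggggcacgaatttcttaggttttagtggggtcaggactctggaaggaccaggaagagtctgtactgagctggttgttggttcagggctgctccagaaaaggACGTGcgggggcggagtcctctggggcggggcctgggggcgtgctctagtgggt
Tfrc: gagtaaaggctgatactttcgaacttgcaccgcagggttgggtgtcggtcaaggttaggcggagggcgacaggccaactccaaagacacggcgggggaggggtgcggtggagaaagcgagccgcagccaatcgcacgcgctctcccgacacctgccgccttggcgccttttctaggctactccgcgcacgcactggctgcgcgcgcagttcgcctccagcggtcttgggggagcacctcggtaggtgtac

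Motifs were counted in the 250 bases before each listed transcript start. The Tfr2 stretch shown is the first 232 bases of such a window. That window, of the first of 3 starts listed for Tfr2, had 8 CG, 1 ACGTG match and 0 GATAA matches. The second start of Tfr2 had 1 ACGTG match and the third had 2 GATAA matches. The Tfrc window shown had 25 CG and no match to either motif, while its second start had 1 ACGTG match. Of 32851 such windows in the table, 16.6% held ACGTG, 22.6% held GATAA, and the median number of CG was 6.0. These letters are a description of the windows, and methylation was not measured here.

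Tfrc, the main transferrin receptor, was lower at passage 10 than at passage 2 in both genotypes, without overlap, and did not differ detectably between genotypes. Its log2 values were 8.29, 8.17 and 8.18 in Tet2-/- p10 arrays and 8.27, 8.38 and 7.59 in Tet2fl/fl p10 arrays. At passage 2 they were 8.89, 9.02 and 8.72 in Tet2-/- arrays and 8.57, 8.80 and 8.72 in Tet2fl/fl arrays. Replicate 3 of Tet2fl/fl p10 was the lowest of the 12.

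The passage difference of Tfrc was -0.67 ± 0.17 (95% interval -1.05 to -0.29; 0.629-fold) in Tet2-/- cells, which missed the threshold without the replicate block (limma adjusted p = 0.061) and passed with it (0.0273). It also passed without Tet2fl/fl p10 replicate 3 (adjusted p = 0.0216). In Tet2fl/fl cells the difference was -0.62 ± 0.17 (95% interval -1.0 to -0.24) and did not pass (limma adjusted p = 0.401, and 0.145 with the block). It ranged from -0.77 to -0.38 when each array was left out.

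Between arrays of the same replicate number, Tfrc differed by -0.61, -0.85 and -0.55 in Tet2-/- cells and by -0.30, -0.42 and -1.13 in Tet2fl/fl cells. The shared negative sign follows from the lack of overlap between passages. Both passage differences have intervals that exclude 0, and the difference between them was -0.05 (95% interval -0.58 to 0.49). Between genotypes Tfrc differed by 0.13 (95% interval -0.25 to 0.51) at passage 10 and by 0.18 (95% interval -0.20 to 0.56) at passage 2. Tfrc and Tfr2 thus differed in opposite directions between passages in Tet2-/- cells, where the Tfr2 difference was 0.49.

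Steap3, the endosomal ferrireductase, had log2 values of 6.59, 6.84 and 6.76 in Tet2-/- p10 arrays, against 6.69, 6.93 and 6.91 in Tet2fl/fl p10 arrays. At passage 2 it had 6.66, 6.92 and 7.06 in Tet2-/- arrays, against 6.91, 7.10 and 7.30 in Tet2fl/fl arrays. All groups overlapped with their neighbours in the order of means, while within each replicate number Steap3 was lower in Tet2-/- than in Tet2fl/fl cells and at passage 10 than at passage 2. These differences share arrays and are not independent, and the share of all genes with such a pattern was not computed. The average genotype difference was -0.17 ± 0.09 (95% interval -0.37 to 0.03), which did not pass without the block (limma adjusted p = 0.404) or with it (0.118).

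Slc11a2 encodes the transporter that moves iron out of endosomes. Its log2 values were 8.01, 7.73 and 8.10 in Tet2-/- p10 arrays, against 7.87, 8.02 and 8.35 in Tet2fl/fl p10 arrays. At passage 2 they were 7.76, 7.35 and 8.13 in Tet2-/- arrays, against 8.05, 8.25 and 8.18 in Tet2fl/fl arrays. Replicate 2 of Tet2-/- p2 was the lowest of the 12, and the groups overlapped. The difference at passage 2 was -0.41 ± 0.18 (95% interval -0.82 to -0.01) with a limma adjusted p of 0.491 (0.0461 before adjustment).

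Slc11a1 encodes a metal transporter of phagosomes in macrophages and neutrophils. It had log2 values of 6.03, 6.06 and 6.12 in Tet2-/- p10 arrays and 6.13, 6.14 and 6.08 in Tet2fl/fl p10 arrays. In Tet2-/- p2 arrays it had 6.03, 6.02 and 6.04, and in Tet2fl/fl p2 arrays 6.31, 6.12 and 6.0. Its whole range over the 12 arrays was 0.31, and the 95% interval of its genotype difference was -0.23 to 0.14 at passage 10.

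Hfe, which binds the transferrin receptor and takes part in iron sensing in the liver, overlapped in all groups. It had log2 values of 5.40, 5.68 and 5.16 in Tet2-/- p10 arrays and 5.42, 5.28 and 5.15 in Tet2fl/fl p10 arrays. At passage 2 it had 5.29, 5.29 and 5.62 in Tet2-/- arrays and 5.10, 5.44 and 5.18 in Tet2fl/fl arrays. The average genotype difference was 0.15 (95% interval -0.08 to 0.38; limma adjusted p = 0.547).

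Fth1, the ferritin heavy chain, had log2 values of 12.68, 12.69 and 12.47 in Tet2-/- p10 arrays and 12.49, 12.69 and 12.49 in Tet2fl/fl p10 arrays. At passage 2 it had 12.52, 12.76 and 12.28 in Tet2-/- arrays and 12.35, 12.44 and 12.39 in Tet2fl/fl arrays. The Tet2fl/fl p10 arrays lay above the Tet2fl/fl p2 arrays, by a mean of 0.16 (limma adjusted p = 0.643), and the Tet2-/- groups overlapped. The genotype difference at passage 10 was 0.06 (95% interval -0.20 to 0.32).

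Ftl1, the ferritin light chain, is named by 6 rows, all shared with the pseudogenes Ftl1-ps2 or Ftl2-ps, and 2 of the 6 hold identical values. In the row with the highest mean its log2 values were 12.84, 12.78 and 12.82 in Tet2-/- p10 arrays and 12.86, 13.03 and 12.93 in Tet2fl/fl p10 arrays. At passage 2 they were 12.72, 12.78 and 12.68 in Tet2-/- arrays and 12.82, 12.80 and 12.82 in Tet2fl/fl arrays. The Tet2-/- arrays lay below the Tet2fl/fl arrays at each passage, by 0.12 at passage 10 and 0.09 at passage 2 on average. Of all genes tested, 16.4% at passage 10 and 15.3% at passage 2 did not overlap between genotypes in either direction. None of the 6 rows passed in any comparison when all rows above the filter were fitted with limma. The average genotype difference of the row with the highest mean was -0.11 (limma adjusted p = 0.406). Another shared row differed by 0.29 (adjusted p = 0.434), so the rows did not share a direction.

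Hmox1, the inducible enzyme that breaks down heme and frees its iron, passed in no comparison without the replicate block and in 2 with it. It was higher in Tet2-/- cells on average, and higher at passage 10 within Tet2-/- cells. Its log2 values were 9.36, 8.91 and 8.84 in Tet2-/- p10 arrays, against 8.95, 8.46 and 8.24 in Tet2fl/fl p10 arrays. At passage 2 they were 8.45, 8.62 and 8.11 in Tet2-/- arrays, against 8.46, 8.07 and 8.0 in Tet2fl/fl arrays. The genotypes overlapped at each passage, and in Tet2-/- cells all 3 passage 10 arrays lay above all 3 passage 2 arrays.

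The passage difference of Hmox1 in Tet2-/- cells was 0.64 ± 0.21 (95% interval 0.18 to 1.1; 1.56-fold). It missed the threshold without the replicate block (limma adjusted p = 0.113) and passed with it (0.0179). In Tet2fl/fl cells the passage difference had the same direction, 0.37 ± 0.21, and did not pass (limma adjusted p = 0.559, and 0.24 with the block). Within numbers it was 0.48, 0.39 and 0.24 there. The difference between both passage differences was 0.27 (95% interval -0.38 to 0.92) and did not pass. The average genotype difference was 0.35 ± 0.15 (95% interval 0.03 to 0.68; 1.28-fold), at a mean of 8.72 in Tet2-/- cells and 8.36 in Tet2fl/fl cells. It too passed with the block (limma adjusted p = 0.0446) and not without it (0.265). Within numbers the genotype difference was 0.42, 0.45 and 0.60 at passage 10, and -0.01, 0.55 and 0.11 at passage 2.

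Slc40a1, which encodes the iron exporter ferroportin, spread widely within groups (SD 0.37 to 0.53, n = 3 each). Its log2 values were 5.16, 4.97 and 5.69 in Tet2-/- p10 arrays, against 5.34, 4.76 and 5.82 in Tet2fl/fl p10 arrays. At passage 2 they were 4.91, 5.23 and 5.66 in Tet2-/- arrays, against 5.90, 5.36 and 6.20 in Tet2fl/fl arrays. Replicate 3 was the highest array of every group. The difference at passage 2 was -0.55 ± 0.30 (95% interval -1.21 to 0.11) and did not pass with limma (adjusted p = 0.591, and 0.162 with the block). At passage 10 it was -0.04, with an interval of -0.70 to 0.63 that leaves sizeable changes in either direction undetectable.

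**Figure D3:**
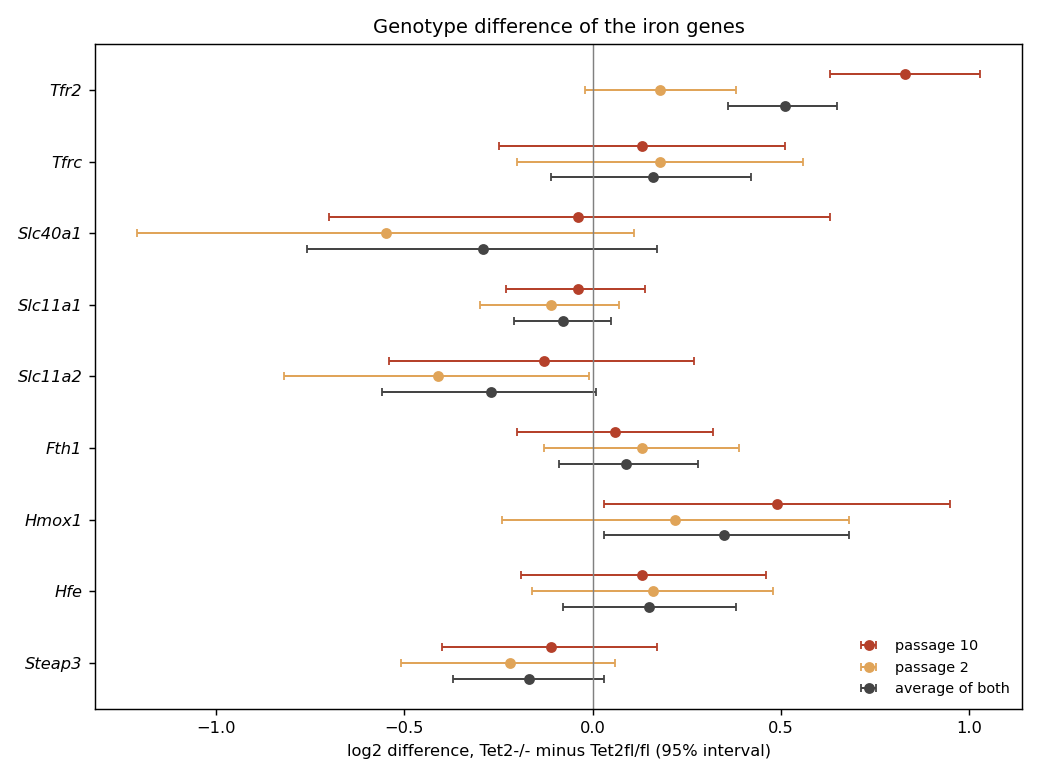
Log2 difference (x axis), Tet2-/- minus Tet2fl/fl, of the 9 tested iron genes at passage 10, at passage 2 and averaged over both; points are limma's estimates and bars their 95% intervals. Tfr2 at passage 10 (0.83) stands clear of 0, and the wide bars of Slc40a1 cross it in each comparison.

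Counted together, 1 of the 9 iron genes passed in the genotype comparison at passage 10 (Tfr2) and 0 passed at passage 2 without the block, where 0.00593% of all genes passed in limma and 1 of the 9 had an unadjusted p under 0.05, beside 9.95% of all genes. With the replicate block the count at passage 2 was also 0, against 0.409% of all genes, and at passage 10 it was 1, against 1.31% in either direction and 0.611% higher. The median difference of the 9 was 0.06 at passage 10 and 0.13 at passage 2, beside -0.01 and -0.00 over all genes. In the average genotype effect 1 of 9 passed without the block and 2 with it, all higher, beside 1.72% and 5.41% of all genes, of which 0.658% and 2.16% were higher.

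Between passages in Tet2-/- cells, 1 of the 9 passed (Tfr2, higher), beside 2.98% of all genes in either direction and 1.25% higher. With the block 3 passed, Tfr2 and Hmox1 higher and Tfrc lower, beside 7.94% of all genes, 3.26% higher and 4.68% lower. For these same 3 genes all passage 10 arrays lay on 1 side of all passage 2 arrays, which held for 28.3% of all genes. In Tet2fl/fl cells 0 of the 9 passed in limma, beside 0.0% of all genes, 1 had an unadjusted p under 0.05 (10.2% of all genes did), and under the replicate block 0 passed, beside 0.0415%. There 3 of the 9 did not overlap (Tfr2 and Tfrc lower, Fth1 higher), as for 14.5% of all genes.

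Markers of maturing neutrophils were read beside the passage differences. Of 13 tested, 9 had lower mean values at passage 10 than at passage 2 in Tet2-/- cells (median difference -0.18) and 13 did in Tet2fl/fl cells (median -0.45), while 57.6% and 57.9% of all genes had positive differences. In Tet2-/- cells 4 passed as lower with the replicate block, beside 4.68% of all genes. Without the block 0 passed in limma, beside 2.98% of all genes in either direction. Their summed level was 7417 to 11338 in Tet2-/- p10 arrays against 10350 to 15150 in Tet2-/- p2 arrays, and 5095 to 11595 in Tet2fl/fl p10 arrays against 7656 to 14354 in Tet2fl/fl p2 arrays. The part of these markers in the passage differences of Tfrc, Tfr2 and Hmox1 was not tested.

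**Figure D4:**
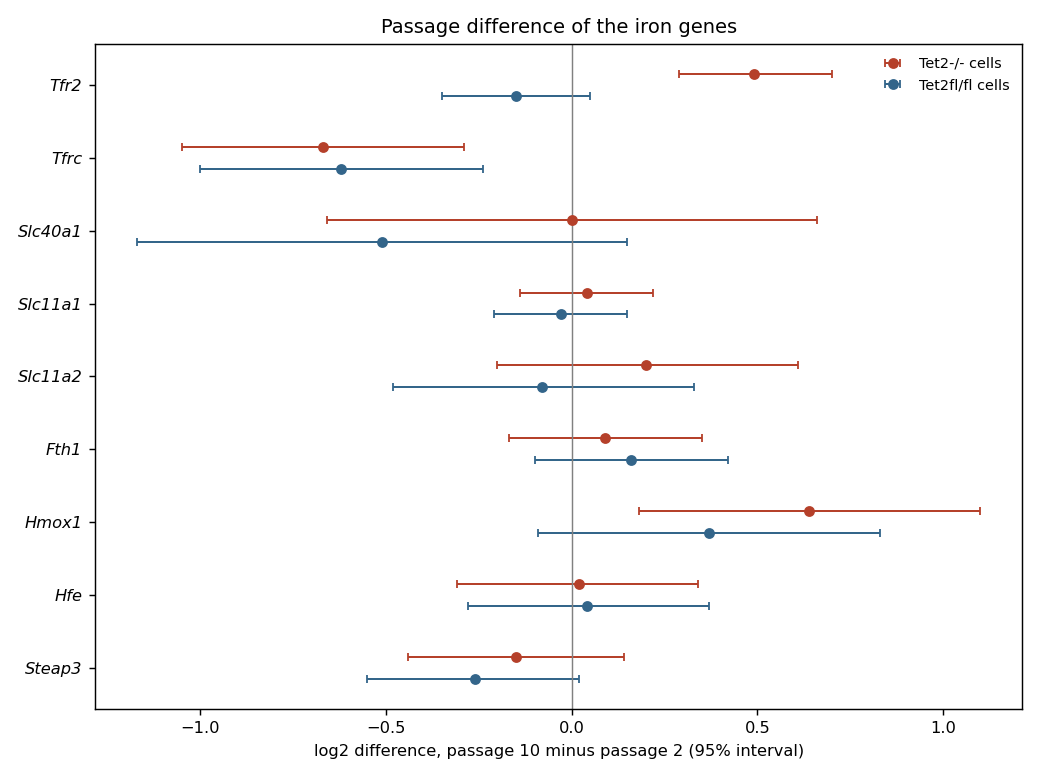
Log2 difference (x axis), passage 10 minus passage 2, of the 9 tested iron genes in Tet2-/- cells and in Tet2fl/fl cells; points are limma's estimates and bars their 95% intervals. Tfrc lies below 0 in both genotypes (-0.67 and -0.62), while Tfr2 lies above 0 in Tet2-/- cells (0.49) and at -0.15 in Tet2fl/fl cells.

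The wider machinery of iron and heme was read from lists chosen with earlier results of these data known. No member of the 5 lists passed in the genotype comparison at passage 10 without the block, beside 0.225% of all genes. With it, heme synthesis and Nrf2 targets each had 1 gene that passed as higher and 1 as lower, beside 1.31% of all genes. Of 20 tested genes for iron sensing and regulation, among them the iron regulatory proteins encoded by Aco1 and Ireb2, 0 passed in the average genotype effect (limma), beside 1.72% of all genes, and 5 had an unadjusted p under 0.05, beside 16.1%. With the block 1 passed as higher and 1 as lower, beside 5.41% of all genes in either direction. Nfe2l2, which encodes the oxidative stress factor Nrf2, was the 1 to pass between passages in Tet2-/- cells. It was higher at passage 10, as were 1.25% of all genes by the same rule. Its mean was 11.04 at passage 10 against 10.69 at passage 2 (0.34 ± 0.08, limma adjusted p = 0.043). That call was kept only without Tet2fl/fl p10 replicate 1 or 3 among the 12 omissions of 1 array, with an adjusted p of up to 0.148.

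Of 24 tested genes for other iron and heme transport and storage, 2 passed as lower in Tet2-/- cells in the average genotype effect and 4 with the block, beside 1.06% and 3.25% of all genes. Slc46a1, a folate and heme transporter, had a mean of 7.93 in Tet2-/- cells against 8.38 in Tet2fl/fl cells (-0.45 ± 0.08, limma adjusted p = 0.0167), and among omissions of 1 array lost its call without Tet2-/- p10 replicate 3 (adjusted p = 0.0503). Blvrb, which encodes biliverdin reductase B, had a mean of 7.95 in Tet2-/- cells against 8.46 in Tet2fl/fl cells (-0.51 ± 0.11, limma adjusted p = 0.0478). Its call was kept when Tet2-/- p2 replicate 3, or replicate 1 of either Tet2fl/fl group, was omitted, and lost without any other single array, with an adjusted p of up to 0.118.

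Of 12 tested genes of heme synthesis, 1 passed as lower in the average genotype effect, beside 1.06% of all genes. With the block 1 passed as higher and 2 as lower, beside 2.16% and 3.25% of all genes. Alad, the second enzyme of the pathway, had a mean of 9.10 in Tet2-/- cells against 9.51 in Tet2fl/fl cells (-0.41 ± 0.08, limma adjusted p = 0.03). It lost its call without 7 of the 12 arrays, namely Tet2-/- p10 replicate 1 or 3, Tet2fl/fl p10 replicate 2, Tet2-/- p2 replicate 1 or 2, and Tet2fl/fl p2 replicate 2 or 3, with an adjusted p of up to 0.0852. Of 16 tested genes of iron-sulfur cluster assembly, 0 passed in the average genotype effect in limma, beside 1.72% of all genes. An unadjusted p under 0.05 was found for 3 of them, beside 16.1% of all genes. Between passages in Tet2-/- cells 1 of the 16 passed, lower at passage 10, beside 2.98% of all genes in either direction. This was Hspa9, a mitochondrial chaperone (-0.40 ± 0.08, limma adjusted p = 0.0341). It lost its call without Tet2-/- p10 replicate 1, 2 or 3 or Tet2-/- p2 replicate 1 or 3 (up to 0.109).

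Hmox1 is among the known targets of Nrf2, and 14 other targets were tested. In the average genotype effect 1 passed as higher and 1 as lower, beside 0.658% and 1.06% of all genes, and the block gave 1 higher and 2 lower, beside 2.16% and 3.25%. The average difference was positive for 6 and negative for 8 (median -0.05). Between passages it was positive for 10 of the 14 in each genotype, beside 57.6% of all genes in Tet2-/- and 57.9% in Tet2fl/fl cells. The median was 0.18 in Tet2-/- cells and 0.14 in Tet2fl/fl cells. In Tet2-/- cells 1 passed as higher, beside 1.25% of all genes. The part of Nrf2 in the Hmox1 values was not tested. Cbr1, a carbonyl reductase, had a mean of 7.14 in Tet2-/- cells against 8.14 in Tet2fl/fl cells (-1.0 ± 0.16, limma adjusted p = 0.0138) without overlap. It kept its call without any single array and lost it without replicate 1 (0.0746) or 2 (0.215) in all groups. Gsta4, a glutathione transferase, had a mean of 7.84 in Tet2-/- cells against 7.29 in Tet2fl/fl cells (0.55 ± 0.10, limma adjusted p = 0.0218), and lost its call without Tet2-/- p2 replicate 1 or 2 or replicate 3 of either Tet2fl/fl group (up to 0.0654). Osgin1, an oxidative stress response gene, was higher at passage 10 in Tet2-/- cells (0.48 ± 0.08, limma adjusted p = 0.0263), and lost its call without Tet2-/- p10 replicate 1, 2 or 3 or Tet2-/- p2 replicate 1 or 3 (up to 0.0923).

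Without 1 replicate number in all groups, the other calls named from these lists were lost too. Blvrb lost its call without replicate 2 (adjusted p = 0.322) or 3 (0.306). Slc46a1, Alad, Gsta4, Nfe2l2, Hspa9 and Osgin1 lost theirs without replicate 1, 2 or 3, with adjusted p-values of 0.0982 to 0.249. With all arrays kept, Nfe2l2 lost its call in limma after scaling to equal array medians (adjusted p = 0.0538) or without the filter on low values (0.0624). Blvrb lost its call without that filter (0.0613). With only the arrays compared, Nfe2l2 (0.0868), Hspa9 (0.0646) and Osgin1 (0.0689) lost theirs.

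**Figure D5:**
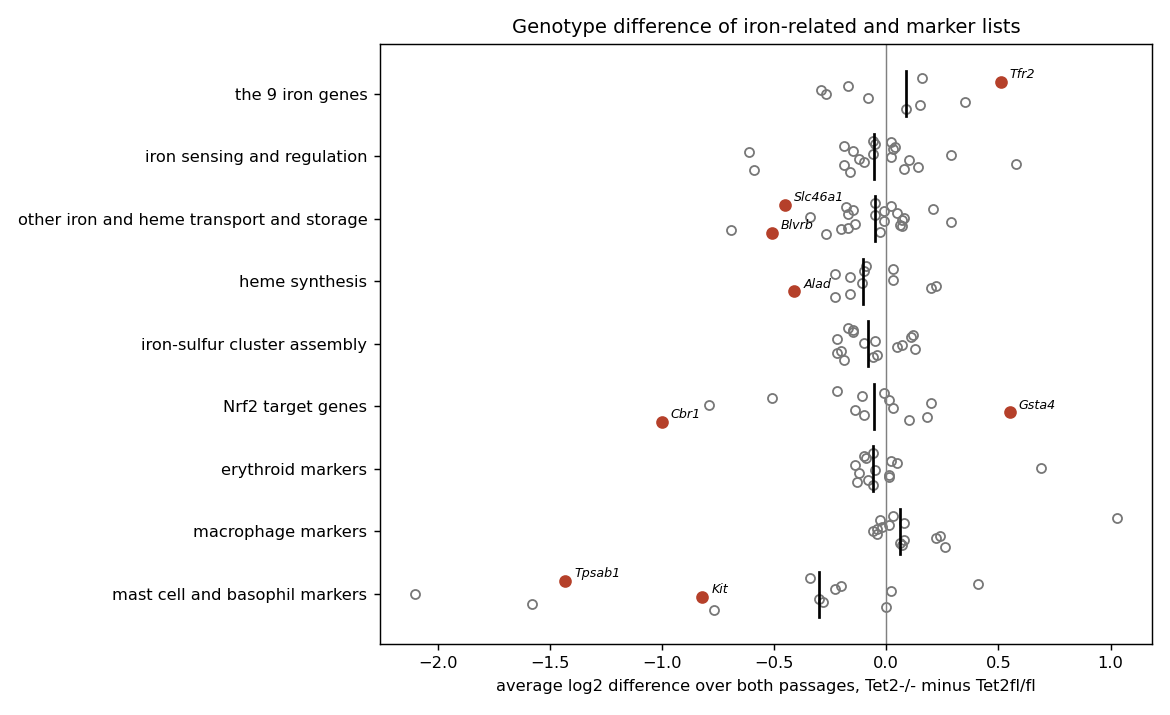
Average log2 difference over both passages (x axis), Tet2-/- minus Tet2fl/fl, of each tested gene in the iron genes, the 5 wider lists and 3 lists of cell type markers (rows); filled points passed in limma and are named, open points did not, and black bars are medians. Medians lie near 0 except for mast cell and basophil markers (-0.30).

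Macrophages recycle iron from heme, and their markers were read beside Hmox1 and Slc40a1. Of 15 tested macrophage markers, 0 passed in the average genotype effect in limma, beside 1.72% of all genes. An unadjusted p under 0.05 was found for 2, beside 16.1% of all genes. The replicate block gave 2 that were higher, beside 2.16% of all genes. These 2 were Spic, a factor of iron-recycling macrophages (1.03 ± 0.31, limma adjusted p = 0.117, and 0.0252 with the block), and Adgre1, which encodes F4/80 (0.26 ± 0.09, adjusted p = 0.208, and 0.0419 with the block). The mean of Spic was 5.95 in Tet2-/- cells and 4.92 in Tet2fl/fl cells, the latter near the filter on low values (log2 4.70). In the average, 10 of the 15 markers had a positive and 5 a negative difference (median 0.06), and at passage 10, 7 had a positive and 8 a negative one. The summed level of the list was 7207 to 7599 in Tet2-/- p10 arrays against 5733 to 7080 in Tet2fl/fl p10 arrays, and 5538 to 7510 in Tet2-/- p2 arrays against 4583 to 5853 in Tet2fl/fl p2 arrays. Adgre1 weighs heavily in this sum, with a mean log2 value of 12.29 in Tet2-/- cells and 12.03 in Tet2fl/fl cells. The part of these markers in the Hmox1 values was not tested.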

How the data were processed

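Expression in 12 samples was read on Affymetrix mouse gene arrays, 1 per sample. The deposited log2 values were made by the authors with RMA in Affymetrix Power Tools, per the submitters' processing notes, with versions and genome build not given in the sources used here. RMA normalizes across arrays, so shifts common to all genes are not visible. Array medians were 5.57 to 5.68, and the number of arrays limits the precision. Of 41345 rows, 28941 reached the 30th percentile of row means (log2 4.70). Of all rows, 23521 had 1 symbol, 1814 several and 16010 none, and 23328 of the 23521 matched the GRCm38.p6 gene table, used for names. The row with the highest mean stood for a gene, giving 16860 genes.

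Group means were estimated from the 12 arrays together by limma 3.58.1 (R 4.3.3) (8 residual and 3.33 prior degrees of freedom). Tests were two-sided with Benjamini-Hochberg adjustment over all genes, and the steps were tested on simulated data. Arrays of the same replicate number deviated together: the correlation of deviations from group means was 0.201 to 0.517 in 18 pairs with the same number and -0.369 to 0.0532 in 36 pairs with different numbers. The fit with the replicate number as a block is given where it changes a call of an iron gene. For other genes and for the lists it is given in some comparisons only.

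All 10 iron genes were named. From each other list, up to 4 members that passed with the largest differences were named or, where none passed, the 2 with the smallest p. Members and lists were chosen with earlier results of these data known. Genes named for marker checks outside this rule (Fcgr3, Cd34, Itgam) were chosen after their values were seen. Promoter sequences are RefSeq's and matched 7 of the 10 genes. Alternatives covered scaling, filters, limma's options, blocks, the arrays fitted and omitted arrays.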

Additional observations from a re-analysis of the deposited data

How the results depend on the processing

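The count of iron genes past the threshold at passage 10 between genotypes was 1, and 0 with only the arrays compared; over all omissions of arrays or replicate numbers it was 0 to 1. In the average genotype effect it was 1, 2 with the replicate block, and 0 to 1 over omissions. Between passages in Tet2-/- cells it was 1, and it was 2 with a filter at the 50th percentile, with limma's trend and robust options, with array weights or with a random block (Tfrc was added in each). It was 3 with the replicate block, 0 with only the arrays compared, and 0 to 2 over omissions. Fewer arrays enter the fits that lost calls; other causes were not tested. The counts at passage 2, between passages in Tet2fl/fl cells and for the interaction were 0 under each alternative run. Of 148 recomputed counts 125 stayed within 1.5 times of the value reported. Of 1320 recomputed differences of single iron genes, 16 lost a call, 8 gained one and 0 called ones changed sign; 51 uncalled ones did, all from differences of at most 0.13. The pairing by replicate number changed no other call of an iron gene than those given for Tfrc and Hmox1. Slc40a1 and Hfe were left out by the filter at the 50th percentile. The fit of all rows for Ftl1, and the alternatives for genes of the wider lists, were chosen after seeing the data. A fit of only the arrays compared was not run for the interaction and the average.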

Other observations

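Over the 12 arrays, the genes whose values followed Tfr2 most closely were Ctse (Pearson r = 0.936), Hivep1 (0.93), Zbtb16 (0.929), Fam117b (0.929) and Treml2 (0.921), and those that ran most against it were Mtss1 (-0.918), Ctdspl (-0.916) and Poglut3 (-0.91). These correlations are descriptions over arrays that share the 4 groups, with no p. Ctse, which encodes the protease cathepsin E, had a mean log2 value of 10.51 in Tet2-/- p10 cells, 9.87 in Tet2fl/fl p10 cells, 9.97 in Tet2-/- p2 cells and 9.89 in Tet2fl/fl p2 cells. Mtss1 had 7.80 in Tet2-/- p10 cells, 8.99 in Tet2fl/fl p10 cells, 8.30 in Tet2-/- p2 cells and 9.01 in Tet2fl/fl p2 cells. As the genes were picked for following Tfr2, their genotype differences are not tested here. Among the iron genes, the correlation with Tfr2 was 0.618 for Hmox1 and -0.118 for Tfrc.

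Among 13 tested markers of maturing neutrophils, 0 passed in the average genotype effect in limma, beside 1.72% of all genes. An unadjusted p under 0.05 was found for 4 of them, beside 16.1% of all genes. The median difference of the 13 between genotypes was 0.01 at each passage. Cxcr2, a chemokine receptor, differed by 0.30 (limma adjusted p = 0.143) and Camp, a granule peptide gene, by -1.05 (limma adjusted p = 0.158). The mean of Camp was 4.65 in Tet2-/- cells and 5.7 in Tet2fl/fl cells, the former near the filter on low values (log2 4.70). In the erythroid list, Rhd, a blood group gene, differed by -0.14 in the average genotype effect (limma adjusted p = 0.496).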
